A study of Mus musculus and Homo sapiens with 22 samples.

Results

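Lin28A-bound positions were described in 4 mouse genes whose products act in the nucleolus or in ribosome assembly: Mybbp1a, Mdn1, Ncl and Npm1. They were chosen by name, after the site numbers of these data were known, and are 4 of 5149 genes that held at least 1 Lin28A site. Their sites are the entries of 2 site lists that overlap the RefSeq bounds of each gene on its strand, 43 of 10990 sites in the Mettl3 wild-type (WT) list and 65 of 11285 in the Mettl3 knockout (KO) list. The study probed RNA structure in cell fractions of HEK293 and mouse embryonic stem cells and mapped Lin28A by irCLIP, in which ultraviolet light crosslinks a protein to the RNA it touches and the crosslinked RNA is recovered with an antibody, here anti-Lin28A. Both lists come from V6.5 mouse embryonic stem cells grown with serum and LIF, and differ in the genotype of Mettl3, the catalytic subunit of the enzyme that writes N6-methyladenosine on mRNA. Each genotype has 1 list. Nothing in the labels says whether the knockout line is 1 clone. The anti-GFP control samples, 1 per genotype, were not analysed here.

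Lin28A is an RNA-binding protein of stem cells with a cold shock domain and zinc knuckles, known for blocking the maturation of let-7 microRNAs, where the zinc knuckles recognise the letters GGAG, and for binding many mRNAs. Ribosomes begin in the nucleolus, where RNA polymerase I makes the precursor of the rRNAs and small nucleolar RNAs (snoRNAs) guide its modification. Nucleolin (Ncl) binds nascent pre-rRNA and is among the most abundant nucleolar proteins, nucleophosmin (Npm1) is a histone chaperone that shuttles between nucleolus and cytoplasm, Mybbp1a acts in rRNA synthesis and in the p53 response, and Mdn1 is a very large ATPase that strips assembly factors from the maturing large subunit. Some snoRNAs are made from introns of such genes, Ncl among them.

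Letters are shown for the places where a deposited site falls on an annotated sequence at hand. The first is the start of Mybbp1a, where a site of the KO list only (chr11:72441351-72441400, plus strand, GRCm38.p6) covers the last 26 bases of the gene's RefSeq promoter window, which runs from 250 bases before to 50 bases after the start. The nearest WT site (chr11:72441501-72441550, score 16) lies 100 nt from this KO site. The last 26 bases of the window of Mdn1, the other gene with many more KO sites, hold no site and are given for comparison (chr4:32657143-32657168, plus strand). Capitals mark CACGTG, known as an E-box.
Mybbp1a: gactgtcttctgagccCACGTGtttg
Mdn1: gtgaattccttcacCACGTGtgtgtc
Counting from 1 at the start that each window is built on, CACGTG begins at base 41 in Mybbp1a and at base 39 in Mdn1. That start is the first base of the gene bounds in Mybbp1a and lies 5 bases inside them in Mdn1. CACGTG reads the same on both strands and is not in the window of Ncl. No promoter window was at hand for Npm1, so it was not checked. Of 32851 RefSeq promoter windows of 300 bases, 7.15% hold it anywhere and 1.08% in the last 50 bases. GGAG is not in the last 50 bases of the Mybbp1a or the Mdn1 window, while 54.4% of the windows hold it there. The Ncl window holds it there, from base 18. The rest of the Mybbp1a site lies past the window and was not read. The match is a description of 2 genes that were chosen for their site numbers.

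The second place lies inside Ncl. A site of both lists (chr1:86352001-86352100, minus strand) covers positions 28 to 127, counted from the 5′ end, of the 147-base hairpin annotated as Gm24148, a miRNA gene at chr1:86351981-86352127. Capitals in the hairpin mark the mature miRNA, and capitals in the mature sequence mark its seed, bases 2 to 8.
Gm24148: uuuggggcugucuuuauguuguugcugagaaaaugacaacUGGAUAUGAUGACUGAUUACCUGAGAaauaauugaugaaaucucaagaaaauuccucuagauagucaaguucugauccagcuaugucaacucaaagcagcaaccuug
mmu-miR-3535: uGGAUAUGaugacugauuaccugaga
The mature miRNA lies at positions 41 to 66, wholly under the site, and no other mature miRNA in the RefSeq table has its seed. GGAG is not in this hairpin, while 44.5% of 1005 mouse hairpins hold it on the transcribed strand. The letters UGAUGA and CUGA, which are also the core letters of boxes C and D of one class of snoRNA, occur 2 and 4 times in it. UGAUGA occurs in 2.69% and CUGA in 43.0% of the 1005 hairpins. The longer AUGAUGA occurs 1 time in Gm24148, from position 46, and in 0.697% of the hairpins. The last CUGA begins at position 112, so both lie under the site. Gm24148 is annotated as a miRNA gene, and whether its RNA is a snoRNA was not tested. Its site is kept in the Ncl numbers below, 17 WT and 20 KO sites. Counted apart, a setting chosen after seeing the data, it leaves 16 and 19.

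The comparison of WT with KO asks where Lin28A sits when Mettl3 is missing. Mybbp1a held 12 WT and 21 KO sites, Mdn1 7 and 16, Ncl 17 and 20 apart from its annotated snoRNAs, and Npm1 5 and 6. All 4 had more sites in the KO list, by 9, 9, 3 and 1, as did 37.2% of the 395 genes whose sites in the 2 lists sum to 10 or more. The KO share of sites was 63.6% (exact 95% interval 45.1 to 79.6) in Mybbp1a, 69.6% (47.1 to 86.8) in Mdn1, 54.1% (36.9 to 70.5) in Ncl and 54.5% (23.4 to 83.3) in Npm1. Over all sites of both lists it was 50.7%, which lies inside each of the 4 intervals. Among these 395 genes, 0.253% had an interval wholly above it. Mybbp1a and Mdn1 passed a KO to WT ratio of 1.5, with 1.75 and 2.29, and 11.4% of the 395 genes did so, while 15.4% passed it the other way. A ratio of 2, applied to the 1025 genes with 5 or more sites in the lists together, was passed by Mdn1 alone of the 4, beside 6.83% of these genes with more KO and 6.34% with more WT sites. Those 2 genes were chosen with these ratios known, so nothing is read from the count. Ncl and Npm1, with 1.18 and 1.20, did not pass it.

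**Figure D1:**
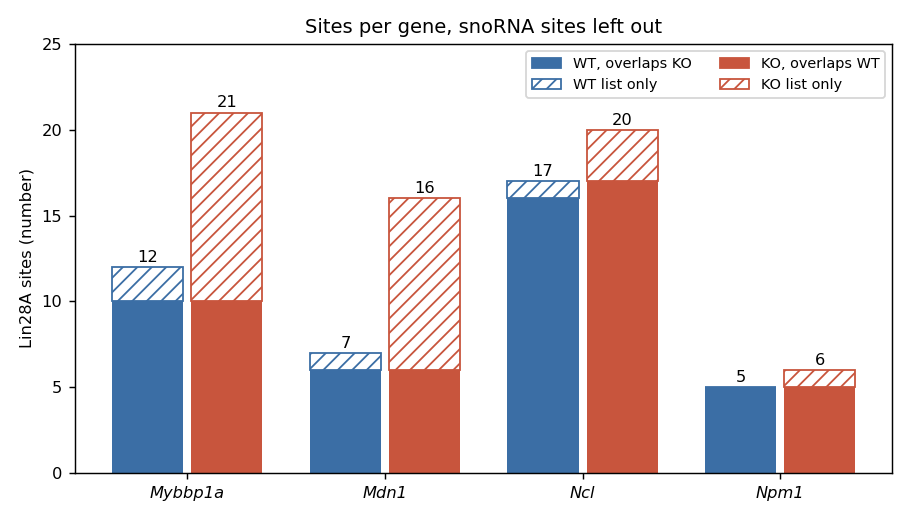
Number of Lin28A sites (vertical axis) in each gene in the WT list (blue) and the KO list (red), without sites over snoRNAs. Filled parts overlap a site of the other list and hatched parts do not. The hatched part is largest in the KO bars of Mybbp1a (11 of 21) and Mdn1 (10 of 16).

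Density separated the genes in another order. Mybbp1a spans 10444 nt and held 1.15 WT and 2.01 KO sites per kb, and Ncl, over 14737 nt, held 1.15 and 1.36. Npm1, over 11645 nt, held 0.429 and 0.515 per kb. Mdn1 spans 118104 nt and was the sparsest, at 0.0593 and 0.136 per kb. These bounds include introns, so the densities are per genomic length and not per length of mRNA. No site lay on the opposite strand of Mybbp1a, Mdn1 or Ncl in either list. The tables give no strand for Npm1, and all of its sites were on the minus strand, which was taken as its own.

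Mybbp1a (chr11:72441327-72451770, plus strand) carried the strongest single site of the 4 genes. It lay 0.296 kb before the end of the gene (chr11:72451451-72451500), with a score of 306 in the WT list and 354 in the KO list. The score, deposited by the authors, is a mean per 50-nt bin whose unit is not given, and it is read only within its list: 98.8% of WT sites and 99.04% of KO sites scored lower than this one. The site held 47.0% of the gene's summed bin scores in the WT list and 42.3% in the KO list. Next was a site 6.75 kb from the start (chr11:72448051-72448100), scored 88 and 119. Both lists thus placed their highest scores in this gene at the same 2 positions, and no other site of the gene scored above 35 in either list.

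Of the 12 WT sites in Mybbp1a 10 overlapped a KO site, and of the 21 KO sites 10 had a WT partner. The other 11 KO sites were spread over the whole gene, from the start site shown above to 0.746 kb before the end. Their scores were 21, 13, 13, 28, 15, 17, 19, 14, 13, 17 and 13 from the start to the end of the gene, with a median of 15, against a median of 22 for the 10 overlapping KO sites. The site scored 28 (chr11:72446001-72446050) lay 1100 nt from the nearest WT site, and the one scored 15 lay 950 nt away. Together they fall in a stretch, between 3.40 and 5.85 kb from the start, where the WT list had no site. The other 9 lay within 400 nt of a WT site. The 2 sites of the WT list only scored 16 and 13. In 50-nt bins Mybbp1a had 16 WT and 22 KO bins, 11 of them common, a KO to WT ratio of 1.38 that no longer passes 1.5. Among sites at or above the median score of their list it held 4 and 10.

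Mdn1 (chr4:32657114-32775217, plus strand) had no site before 26.5 kb from its start in either list. Its 7 WT sites scored 15, 17, 17, 16, 40, 33 and 14 in order along the gene. Of its 16 KO sites, the 6 that overlapped WT sites scored 18.5, 22, 24, 43, 44 and 18. Both lists had their highest scores in the gene at chr4:32732801-32732850 (40 in WT and 43 in KO) and chr4:32739801-32739850 (33 and 44). The gene had no site with a score of 50 or more.

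The 10 sites of Mdn1 in the KO list only scored 12, 13, 15, 16, 15, 13, 13, 13, 31 and 13 along the gene. All but the one scored 31 (chr4:32765151-32765200) lay within 4 of the lowest score of the KO list, which is 12. That site was 8850 nt from the nearest WT site. Between the second of the high positions and the sites near the end of the gene, the WT list held none and the KO list 4 of the 10. The only WT site without a KO partner, at chr4:32723501-32723550, scored 16. Among sites at or above their list's median score Mdn1 had 2 WT and 5 KO sites, and in 50-nt bins 8 and 18, with 7 in common.

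**Figure D2:**
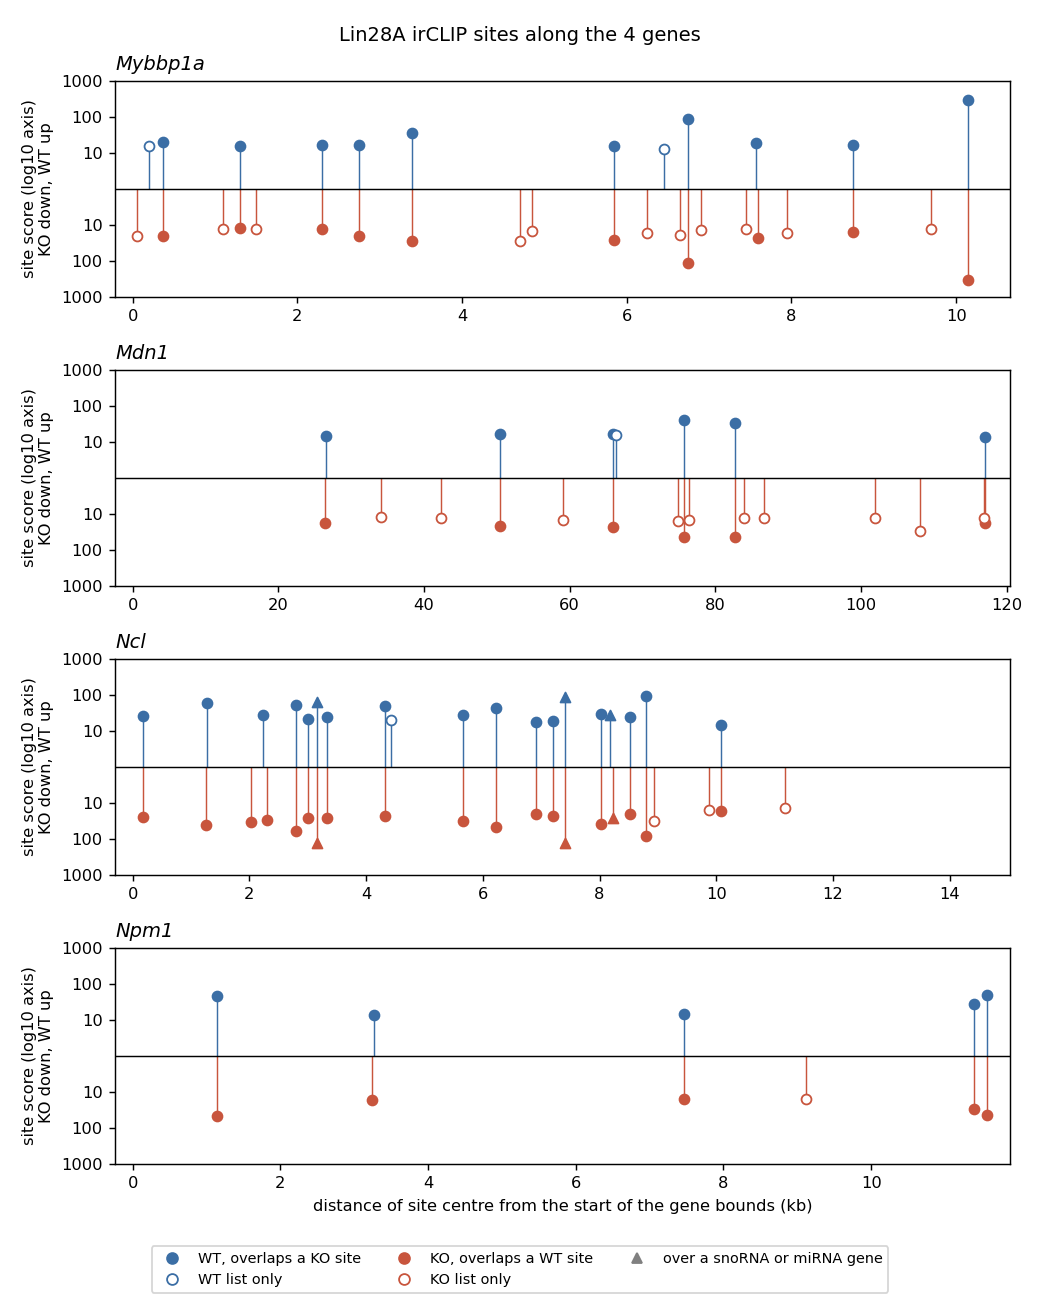
Each stem is a Lin28A site at its distance from the gene's start in kb (horizontal axis), with its score on a log10 axis, WT upward and KO downward. Filled symbols overlap a site of the other list, open ones do not, and triangles lie over a snoRNA or miRNA gene. The tallest stems of Mybbp1a, near 6.75 and 10.1 kb, stand in both lists, while most open symbols are short stems of the KO list in Mybbp1a and Mdn1.

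Ncl (chr1:86344719-86359455, minus strand) had the largest part of its length under sites of the 4 genes, mostly at the same positions in both lists. With snoRNA sites included, 45 of its 47 WT bins and 45 of its 52 KO bins were common, 95.7% and 86.5%, and the bins covered 15.95% and 17.6% of the gene. Its sites were also wide: 76.5% of WT and 70.0% of KO sites exceeded 50 nt, against 14.1% and 14.5% in the whole lists. The widest, 9 bins in the WT list (chr1:86357001-86357450), was met in the KO list by 2 sites of 8 bins and 1 bin. Apart from the annotated snoRNAs, 14 of 17 WT sites and 17 of 20 KO sites reached the median score of their list, where 52.9% and 50.6% of all sites do.

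The highest scores in Ncl outside the annotated snoRNAs were at chr1:86350601-86350700, with 95 in the WT and 85.5 in the KO list, and at the Gm24148 hairpin shown above, with 89 and 132.5. Of the WT sites 93.9% and of the KO sites 96.7% scored lower than the hairpin site. Exons were not used here, so whether other sites of Ncl lie in exons or introns is not given. The scores at the 5′-most site, 0.180 kb from the start, were 25.7 and 24.3. At the other end the last WT site lay 4.66 kb and the last KO site 3.56 kb before the end of the bounds.

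Over snoRNAs, Ncl held 2 WT and 2 KO sites, which are not in the numbers above. Snora75, a snoRNA at chr1:86351170-86351285, had 35 of its 116 bases under a WT site of 1 bin scored 28 and all of them under a KO site of 3 bins scored 26.7. Snord82, at chr1:86356260-86356327, lay under a site of 2 bins in both lists, scored 62.5 in the WT list and 133 in the KO list. The Snord82 site outscored 90.5% of WT and 96.8% of KO sites. The Snord82 and hairpin sites were the 2 highest of the gene in the KO list. In the WT list only the site scored 95 lay above the hairpin site, and these 2 lay above the Snord82 site. RNA of a mature snoRNA and of its host intron cannot be told apart by these sites.

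Of the Ncl sites in 1 list only, 3 were in the KO list, scored 14, 16 and 31, and 1 in the WT list, scored 20. All 3 KO sites lay between 8.93 and 11.2 kb from the start. The one scored 31 (chr1:86350501-86350550) was 50 nt from the WT site that scored highest in the gene.

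Npm1 (chr11:33152498-33164142) had the same 5 positions in both lists and 1 more in the KO list. Its strongest sites lay at both ends. Near the start, a site of 4 bins (chr11:33162901-33163100) scored 47 in the WT list and 45.8 in the KO list and held 49.3% and 44.9% of the gene's summed bin scores. At the far end, 0.078 kb before the end of the bounds, a site of 1 bin scored 49 and 44, and a neighbouring site of 4 bins scored 28.8 and 29. The middle sites scored 15 and 14 in the WT list and 16 and 16.5 in the KO list. The sixth KO site (chr11:33155001-33155050) scored 16 and lay 1600 nt from the nearest WT site. All 11 WT bins were also KO bins.

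Sites of 1 list only, counted over the 4 genes without snoRNA sites, were 4 of 41 WT sites (9.76%) and 25 of 63 KO sites (39.7%), where 24.9% of all WT and 27.1% of all KO sites overlap none of the other list. The genes were chosen with these numbers known, so this is a description. Of the 25 KO sites, 21 were in Mybbp1a and Mdn1. Most had low scores: 18 of 25 lay within 4 of the lowest score of the KO list (at or below 16), and so did 4 of the 38 overlapping KO sites. In the whole KO list the shares are 75.8% of sites without and 26.4% of sites with a WT partner. The 5 at or above the KO median of 19 were 3 in Mybbp1a, 1 in Mdn1 and 1 in Ncl, and the highest scored 31. The lists did not end at the same score: the lowest was 13 in the WT list and 12 in the KO list, where 1231 sites scored under 13. Among the KO sites of the 4 genes, 1 in Mybbp1a and 1 in Mdn1 scored 12. Without such sites the genes held 12 and 20, and 7 and 15.

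**Figure D3:**
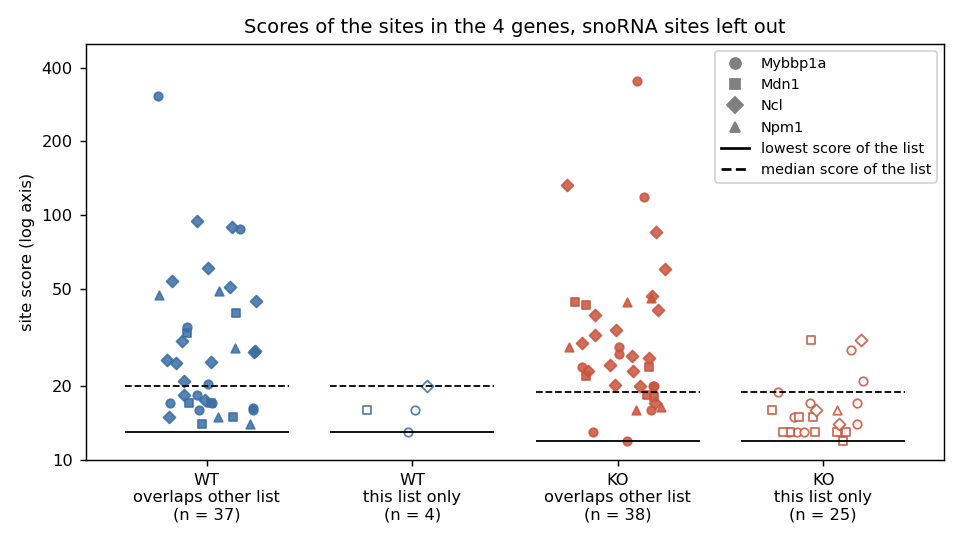
Score (log axis) of each site of the 4 genes, by list and by whether it overlaps a site of the other list, with the marker giving the gene. Solid lines mark the lowest score of the list (13 in WT, 12 in KO) and dashed lines its median (20 and 19). Of the 25 open KO symbols 5 reach the dashed line.

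The other genes of the pathway did not show a common direction. Lists of 121 ribosome assembly genes, all found in the RefSeq table, held 228 WT and 243 KO sites in 86 genes, a KO share of 51.6% where all protein-coding genes gave 50.8%. The 86 are 71.1% of the 121, where 18.9% of all protein-coding genes held a site. That 18.9% counts every gene, whether or not the cells make its RNA. The lists were written with earlier results of these data known. The part of RNA level in this contrast was not tested. Of the 86, 32 (37.2%) had more KO sites, 22 (25.6%) more WT sites and 32 the same number. Of the 4136 protein-coding genes with sites, 32.9% had more KO and 25.5% more WT sites. The median difference was 0 in both. Of the 12 with at least 10 sites, 1 passed the ratio of 1.5 with more KO sites (Ruvbl2, 4 and 6) and 2 with more WT sites (Wdr43 and Ftsj3, both 7 and 4), beside 11.4% and 15.4% of all such genes. Sites over snoRNAs are included in these genes. With them counted apart, as in Ncl, Wdr43 had 4 and 2 and was no longer among the 7 genes with at least 10 sites, which left 1 gene with more KO and 1 with more WT sites. The KO minus WT number ran from -3 (2 genes) to 2 (12 genes), and 35 of the 121 genes held no site.

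For RNA polymerase I transcription, 9 of 13 genes held 33 WT and 39 KO sites. Rrn3, an initiation factor of the polymerase, had 11 in each list, Taf1d, a subunit of its promoter selectivity factor, 8 and 9, and Nolc1, a nucleolar phosphoprotein, 3 and 3, a total that 3 other genes of the list share. Among the proteins of snoRNA particles, 10 of 12 genes held 31 and 34 sites. Nop58 and Nop56, both core proteins of box C/D particles, had 6 and 8 and 7 and 6, and Ruvbl2, an ATPase in their assembly, 4 and 6.

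In the small subunit processome, the large particle that forms on the nascent pre-rRNA, 35 of 46 genes held 75 WT and 80 KO sites. Heatr1 had 9 and 7, Wdr43 7 and 4, Pdcd11 4 and 5, and Tsr1, which acts later on the small subunit, 3 and 5. In large subunit assembly, where Mdn1 acts, 32 of 50 genes held 89 and 90 sites. The RNA helicase Ddx21 had 12 in each list, the SUMO protease Senp3 7 and 8, and the GTPase Gtpbp4 7 and 6. Ftsj3, an RNA methyltransferase, had 7 and 4, and Pelp1 and Wdr18, which belong to the complex that works with Mdn1, had 3 and 5 and 3 and 1.

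**Figure D4:**
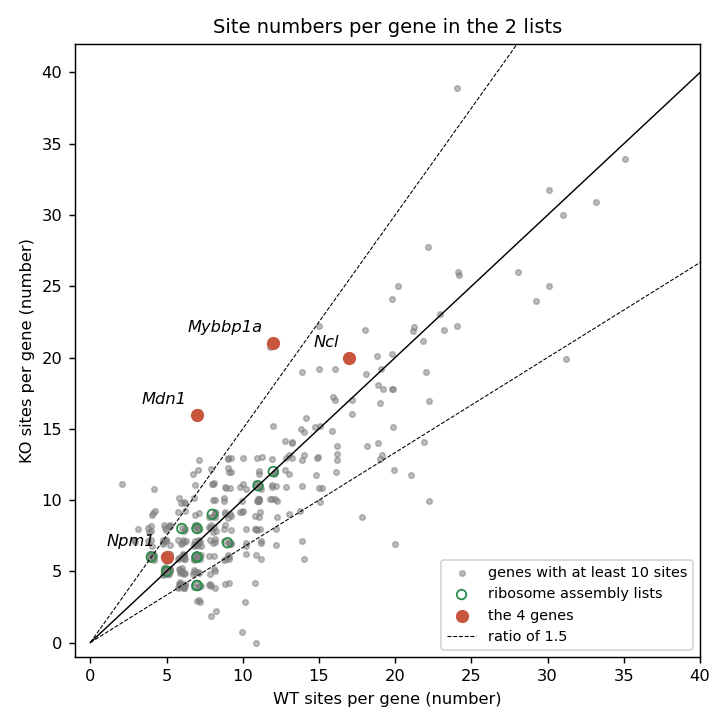
WT against KO site number for the 395 genes with 10 or more sites in the lists together (grey, moved slightly at random to separate equal points), with the ribosome assembly genes of that number ringed in green and the 4 genes in red. The solid line marks equal numbers and the dashed lines a ratio of 1.5. Mybbp1a and Mdn1 lie above the upper dashed line, Ncl and Npm1 near the solid one.

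The genes most like each member were taken as those with the smallest summed difference in both site numbers, over the 2 lists. For Mybbp1a they were Tnks2 (14 WT and 19 KO sites), Scd2 (15 and 22) and Sf3b1 (15 and 19), at summed differences of 4, 4 and 5. For Mdn1 they were Otud4 (7 and 13), Polr2a and Tomm70a (both 7 and 12), at 3, 4 and 4. For Ncl they were Hspa4 (18 and 19), Hsp90b1 (16 and 19) and Trim28 (19 and 20), each at 2. For Npm1, 18 genes had the same 5 and 6 sites, the first by name being Actr2, Atrx and Bclaf1. By total number the members ranked 40 (Mybbp1a), 89 (Mdn1), 29 (Ncl) and 296 (Npm1) among the 395 genes.

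The cell label was checked on marker genes. All 12 pluripotent stem cell markers held sites, 53 WT and 65 KO in total, and 6 of them had more KO, 3 more WT and 3 equal numbers. Pou5f1 had 6 and 7, Sox2 7 and 11, and Lin28a itself 6 and 5. None of 7 fibroblast and none of 9 germ layer markers held a site in either list. Of all protein-coding genes 18.9% held a site, so having none is what most genes show and says little about the cells. Mettl3 held no site in either list, and Lin28A sites are no measure of how much Mettl3 a cell makes, which leaves the genotype unchecked. A site list also depends on how much of an RNA a cell holds. No RNA level of the 4 genes was used here, and the part of RNA level in the difference between the lists was not tested. Read depth is not given for either list, and its part was not tested.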

How the data were processed

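The 2 irCLIP site lists are the only files used. Each deposited row gives a position, strand, score and p-value. No source used here says how sites were called or against which control. Per the submitters' processing notes, Bowtie2, UMI-tools and mm10 were named, with no tool versions. The score deposited by the authors was whole for all 9446 WT and 9646 KO sites of 50 nt. For 1541 of 1544 wider WT sites and 1636 of 1639 wider KO sites, score times the number of 50-nt bins was whole within 0.01, so it is read as a mean per bin. The p-value deposited by the authors was at most 1.01e-05 (WT) and 1.06e-05 (KO). Read depth is not given.

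Sites overlapping the RefSeq bounds (GRCm38.p6, the assembly behind mm10) by at least 1 nt on the gene's strand were counted (pandas 2.3.3, scipy 1.17.1). The table's strand came from its promoter or miRNA entry, which 3437 of the 5149 genes with sites had. For the others, sites on either strand counted. A site over 2 genes counted for both. Exons were not used here. A site was shared when 1 nt or more overlapped a same-strand site of the other list. The counting was tested on simulated sites. Intervals are exact (Clopper-Pearson, 95%), for counting error only, and treat sites as independent. With 1 list per genotype no test between genotypes was run. A gene is called past a KO to WT ratio of 1.5, either way, with at least 10 sites over both lists. The members and gene lists were chosen with earlier results of these data known. Outside the 4 genes, the text names in each ribosome assembly list the 3 genes with the most sites. Over these lists together it names 4 genes from the highest and 4 from the lowest KO minus WT number. Ties went by larger total, then by name, and 12 genes tied for the highest and 3 for the last lowest places. For each member it names the 3 protein-coding genes closest in both site numbers. The marker genes Pou5f1, Sox2 and Lin28a were not named by these rules. The icSHAPE files are keyed by transcripts that no table here pairs with genes, so they were not used.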

Additional observations from a re-analysis of the deposited data

How the results depend on the processing

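The 4 KO shares stayed inside their main intervals under every alternative run. With the 5000 highest-scoring sites of each list they were 75.0% in Mybbp1a, 71.4% in Mdn1, 58.6% in Ncl, and Npm1 had 3 sites in each list. In 50-nt bins they were 57.9%, 69.2%, 51.6% and 54.2%, and the ratio of Mybbp1a fell to 1.38. Numbers of sites in 1 list only depended more on the setting. Where a site of the other list within 100 nt counted as shared, they were 1 WT and 7 KO in Mybbp1a and 0 WT in Ncl. Among sites at or above the median score of their list, they were 0 WT and 3 KO in Mybbp1a, 0 and 1 in Mdn1, 1 KO in Ncl and 0 KO in Npm1. Leaving out sites under a score of 13, chosen after seeing the data, gave 3 WT and 11 KO in Mybbp1a and 1 and 9 in Mdn1. In the ribosome assembly lists, 1 gene with more KO and 1 with more WT sites of 3 genes passed the ratio among sites at or above the median. With the 5000 highest-scoring sites 0 passed either way (0 genes reached 10 sites). In 50-nt bins 2 with more KO and 3 with more WT sites of 14 genes passed. At 5 sites and a ratio of 2, 3 with more KO and 0 with more WT sites of 38 genes passed, as did 6.83% and 6.34% of all genes. With snoRNA sites counted apart, chosen after seeing the data, 1 with more KO and 1 with more WT sites of 7 genes passed. In total, 62 of the 78 values under other settings stayed within the main interval (shares) or within 1.5 times the main number (counts), and 16 did not. Some of the 62 could not change. The sites lie on 50-nt steps, so an overlap of 25 nt equals one of 1 nt. Of the 4 genes only Ncl has snoRNA or hairpin sites, and Npm1 was always counted on either strand. The KO share of the gene lists does not use the ratio. The tally is therefore no measure of robustness. No paired analysis was possible because each genotype has 1 list. No replicate could be left out for the same reason.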

Other observations

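Other ribosome assembly genes also held sites over snoRNAs inside their bounds, and these were counted with the gene above. Among the 121 genes, 7 did, with 20 such sites in each list. In Taf1d they were 5 of 8 WT and 5 of 9 KO sites, in Nop56 4 of 7 and 4 of 6, in Nop58 3 of 6 and 4 of 8, in Gnl3, a nucleolar GTPase, 2 of 5 and 3 of 5, and in Wdr43 3 of 7 and 2 of 4. Counted apart, Taf1d had 3 and 4 sites, Nop56 3 and 2, Nop58 3 and 4, Gnl3 3 and 2 and Wdr43 4 and 2. Ncl was therefore not alone among these genes in holding sites over snoRNAs. Gnl3 was named after its values were seen.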
